A study of Mus musculus with 8 samples.

Results

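Complex I (NADH:ubiquinone oxidoreductase) is the entry point of electrons from NADH into the respiratory chain, and the genes described here are its subunits encoded in the nucleus. They were chosen by name, as the protein-coding genes whose symbol starts with Ndufa, Ndufb, Ndufc, Ndufs or Ndufv, without the assembly factors named Ndufaf. Of 38 such genes, 31 had a locus of their own among the 35299 loci of the deposited table, and all 31 passed the filter on low values. They comprise 29 subunits of complex I and the gene pair Ndufa4 and Ndufa4l2, which carry the family symbol but are not counted as complex I subunits here. The other 7 genes lie in loci that also hold exons of another gene or, for Ndufa13, separate clusters of reference transcripts, so their reads could not be assigned.

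Long RNA selected for poly(A) was sequenced from 8 mouse hearts. The tissue was the border zone, which in an infarcted heart is the muscle that edges the dead tissue. The MI group comprised 4 hearts taken 2 weeks after myocardial infarction, the death of heart muscle when its blood supply fails. The Sham group comprised 4 hearts taken 2 weeks after a sham operation. All animals were C57BL/6J mice, 12 weeks old, with no genotype or drug named in the labels.

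Complex I is L-shaped. Its matrix arm holds the flavin and the chain of iron-sulphur clusters that pass electrons from NADH to ubiquinone, and its membrane arm pumps protons. The catalytic core subunits are conserved from bacteria; some are encoded in the nucleus and the others in the mitochondrial genome, and around them sit supernumerary subunits found in eukaryotes. Heart muscle is dense in mitochondria and draws most of its ATP from the respiratory chain.

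Depth was 165 to 190.2 M reads in the MI libraries and 108 to 161 M reads in the Sham libraries, so every MI library was deeper than every Sham library (exact permutation test, 2-sided p = 0.0286, the smallest possible with 4 against 4). The groups separated along the first principal component of all tested loci, which held 61.9% of the variance. The groups follow the sample titles and the stated treatment, but further fields say otherwise. For every MI sample the source is given as a Sham heart, and the free-text description names a sham infarct for MI replicates 1 to 3 and an infarct for Sham replicate 4. The titles of the Sham samples also carry a remark that they were reanalysed, so a difference in their origin and the infarction cannot be told apart. Of 19186 tested loci, 3855 were lower and 3999 higher in MI hearts. With scaling to the library total in place of the deposited normalisation, the split was 1493 lower and 8569 higher, and with scaling to the nuclear total (the reads outside the mitochondrial genome) it was 2142 lower and 6389 higher.

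Transcripts of complex I subunits were lower in the infarcted hearts almost without exception, and by similar amounts. Of the 29 subunits, 28 were lower and none was higher in MI hearts (limma with Benjamini-Hochberg adjustment over all tested loci, threshold 0.05), where 20.1% of all tested loci were lower and 20.8% higher. At an unadjusted p under 0.05, 29 subunits were lower and none higher; edgeR called 28 lower and DESeq2 called 29 lower, both with none higher. The MI mean of a subunit was 59.6% to 84.0% of its Sham mean, with a median of 67.8%. The median log2 difference (MI minus Sham) was -0.56, with a range of -0.75 to -0.25, against a median of -0.02 over all tested loci. None of the subunits was lower by 2-fold. In 28 of the 29 every MI library lay below every Sham library, which was true of 20.0% of all tested loci.

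The log2 differences of the subunits lay close together. Their SD was 0.106, and the standard error of a single subunit was 0.0848 to 0.140. That error includes differences between libraries that the subunits share, so it is not the error of a difference between 2 subunits. No difference between subunits was tested. Of the 29, 18 lay within 1 standard error of their common median and 1, Ndufa11, lay more than 2 standard errors from it. The plot of log2 differences by role shows how closely the subunits cluster.

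**Figure D1:**
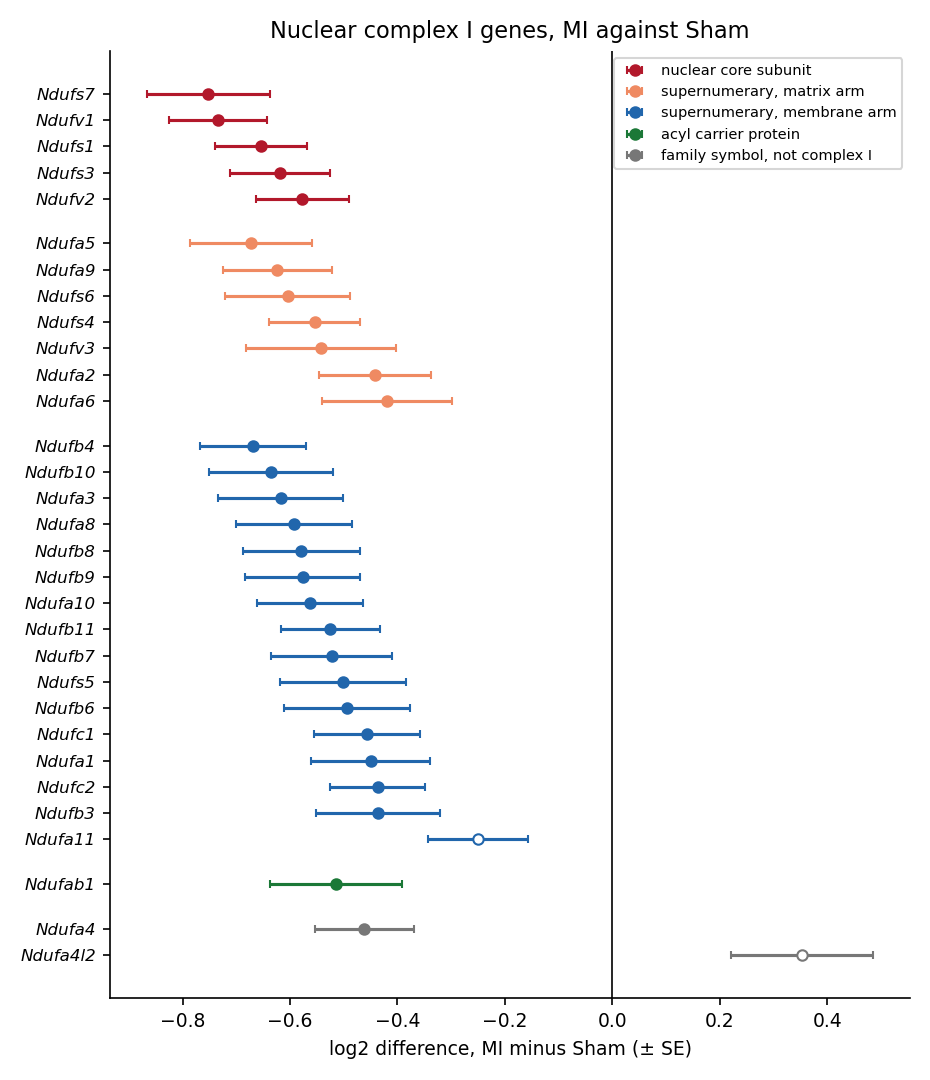
Log2 difference (MI minus Sham, horizontal axis) of each member with its moderated standard error, grouped by role down the page; filled points were called lower and open points were not called. The 29 complex I subunits lie between -0.75 and -0.25, and Ndufa4l2 lies at 0.35.

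The nuclear core subunits carry the cofactors of the matrix arm and had the lowest values of the roles, with a median log2 difference of -0.65 over the 5 that had a locus of their own. All 5 fell. Ndufv1, which binds the flavin that takes electrons from NADH, had 51727, 66666, 58498 and 64145 normalised reads in MI replicates 1 to 4, against 97177, 94176, 107289 and 100772 in Sham replicates 1 to 4. No MI library reached the lowest Sham library, and the means were 60259 ± 6634 in MI hearts and 99854 ± 5643 in Sham hearts (SD, n = 4 each). The log2 difference was -0.73 ± 0.09 (SE, limma adjusted p = 0.000166; mm9 chromosome 19, 4007505 to 4012725, minus strand).

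Ndufs7 holds the last iron-sulphur cluster before ubiquinone and had the lowest log2 difference of the members. It had 17226, 22717, 18598 and 23075 normalised reads in MI replicates 1 to 4, against 34328, 29742, 39341 and 33640.0 in Sham replicates 1 to 4. Its means were 20404 ± 2935 in MI hearts and 34263 ± 3942 in Sham hearts (SD, n = 4 each), a log2 difference of -0.75 ± 0.11 (limma adjusted p = 0.000538; mm9 chromosome 10, 79711874 to 79721122, plus strand). MI replicates 1 and 3 were below MI replicates 2 and 4, and the groups did not overlap. Of the exon bases of this locus, 63.2% are also covered by another deposited locus, and how such reads were counted is not given in the sources used here.

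Ndufs1, the largest subunit, holds several iron-sulphur clusters. It had 48833, 60337, 54184 and 53994 normalised reads in MI replicates 1 to 4, against 77817, 83578, 92011 and 88379 in Sham replicates 1 to 4, with means of 54337 ± 4706 in MI hearts and 85446 ± 6148 in Sham hearts (SD, n = 4 each). The log2 difference was -0.65 ± 0.09 (limma adjusted p = 0.000222; mm9 chromosome 1, 63190175 to 63223803, minus strand), again with a gap between the groups.

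Ndufs3 sits in the part of the matrix arm that faces ubiquinone, and Ndufv2 holds an iron-sulphur cluster beside the flavin. Ndufs3 had 24367, 30329.9, 27953 and 29651 normalised reads in MI replicates 1 to 4, against 43414, 38323, 48189.8 and 42422 in Sham replicates 1 to 4, a log2 difference of -0.62 ± 0.09 (limma adjusted p = 0.000485; mm9 chromosome 2, 90734793 to 90744878, minus strand). Ndufv2 had 31371, 36709, 34752 and 36026 normalised reads in MI replicates 1 to 4, against 49744, 46709, 59031 and 52086 in Sham replicates 1 to 4, a log2 difference of -0.58 ± 0.09 (limma adjusted p = 0.000505; mm9 chromosome 17, 66426455 to 66451645, minus strand). In both, Sham replicate 3 was the highest library and MI replicate 1 the lowest. Ndufs8, another core subunit that binds iron-sulphur clusters, shares a locus with Aldh3b1, and the log2 difference of that locus, -0.55, cannot be assigned to either gene.

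**Figure D2:**
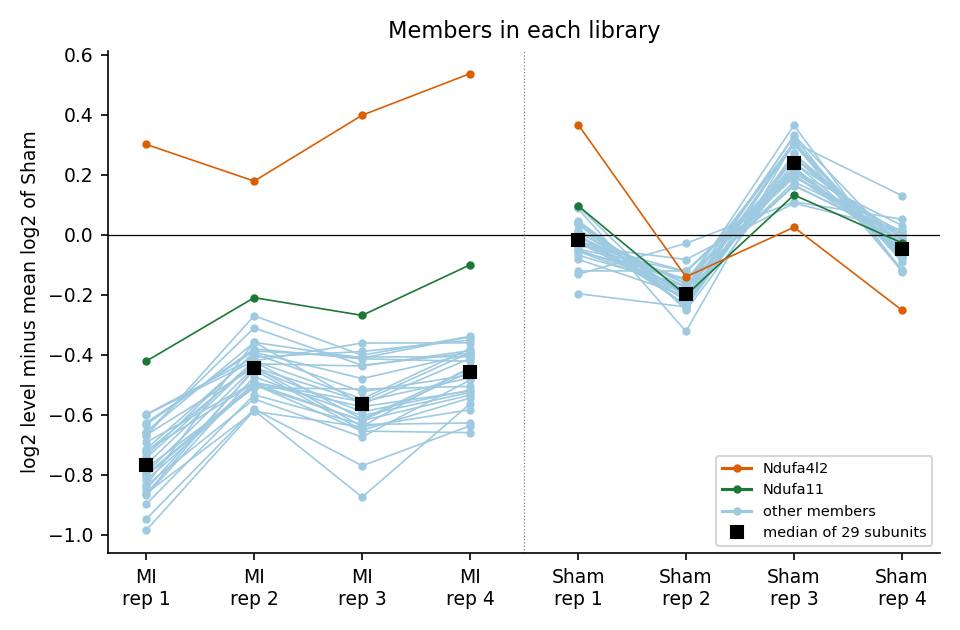
Level of each member in each library, as log2 difference from the member's Sham mean (vertical axis), with the 4 MI libraries to the left of the 4 Sham libraries (horizontal axis) and a line for each member. Most lines run together, with MI replicate 1 lowest for all 29 subunits among MI libraries and Sham replicate 3 highest for all 29 among Sham libraries.

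The supernumerary subunits of the matrix arm all fell as well, 7 of 7 tested, with a median log2 difference of -0.55. Ndufa5, which sits beside the ubiquinone end of the arm, had the lowest value among them. It had 14872, 19145, 17873 and 17937 normalised reads in MI replicates 1 to 4, against 26749, 24557, 34276 and 26168 in Sham replicates 1 to 4, a log2 difference of -0.67 ± 0.11 (limma adjusted p = 0.000956; mm9 chromosome 6, 24467988 to 24477687, minus strand). Ndufa9, a subunit of the dehydrogenase fold that binds NADPH, fell by 0.62 on the log2 scale, and the zinc-binding Ndufs6 fell by 0.60. Ndufs4, whose loss causes Leigh syndrome in humans, fell by 0.55. Ndufv3, a small subunit beside the flavin, fell by 0.54, with its call lost with no filter on low values, and the thioredoxin-like Ndufa2 was lower at -0.44.

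Ndufa6 is a subunit of the LYR family that binds the mitochondrial acyl carrier protein, and it had the highest log2 difference of the matrix arm. It had 9199, 12143, 11086 and 11578 normalised reads in MI replicates 1 to 4, against 14402, 12877, 18354 and 13501 in Sham replicates 1 to 4, with means of 11001 ± 1277 in MI hearts and 14783 ± 2462 in Sham hearts (SD, n = 4 each). The log2 difference was -0.42 ± 0.12 (limma adjusted p = 0.0175; mm9 chromosome 15, 82179396 to 82198547, minus strand). MI replicate 2, the highest of its group, was close to Sham replicate 2, the lowest of its group, and the call was lost with no filter on low values (adjusted p = 0.0787) and with both scalings to totals. Another deposited locus covers 77.3% of its exon bases. Ndufab1, the acyl carrier protein itself, fell by 0.51.

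Of the membrane-arm supernumerary subunits, 15 of 16 were lower, with a median log2 difference of -0.52. Ndufb4, in the outer part of the membrane arm, had the lowest value. It had 11569, 13985, 13491 and 14038 normalised reads in MI replicates 1 to 4, against 21602, 18249, 24389.9 and 20342 in Sham replicates 1 to 4, a log2 difference of -0.67 ± 0.10 (limma adjusted p = 0.000437; mm9 chromosome 16, 37646834 to 37654532, minus strand). Every MI library was below every Sham library by a wide margin. Ndufb10, Ndufa8, Ndufb7 and Ndufs5, which face the intermembrane space and are held by disulphide bonds, were lower by log2 differences of -0.64, -0.59, -0.52 and -0.50.

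Ndufc2 and Ndufb3, also of the membrane arm, were among the 5 members with the highest log2 differences. Ndufc2 had 7428, 8476, 8589 and 8817 normalised reads in MI replicates 1 to 4, against 10874, 10336, 13110.1 and 10860.2 in Sham replicates 1 to 4, a log2 difference of -0.44 ± 0.09 (limma adjusted p = 0.00286; mm9 chromosome 7, 104548476 to 104561549, plus strand). Ndufb3 had 9949.6, 11269, 11742 and 11746 normalised reads in MI replicates 1 to 4, against 14384, 13379, 19413 and 13843 in Sham replicates 1 to 4, a log2 difference of -0.44 ± 0.12 (limma adjusted p = 0.0118; mm9 chromosome 1, 58643035 to 58654984, plus strand). Both fell, with no overlap between groups, although Sham replicate 3 stood well above the other Sham libraries for Ndufb3. Of the exon bases of the Ndufc2 locus, 89.7% are also covered by another deposited locus. The call for Ndufb3 was lost with no filter on low values (adjusted p = 0.0595) and with both scalings to totals, and that for Ndufc2 with scaling to the library total. The other membrane-arm subunits called lower (Ndufa1, Ndufa3, Ndufa10, Ndufb6, Ndufb8, Ndufb9, Ndufb11 and Ndufc1) had log2 differences between -0.62 and -0.45.

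Ndufa11 was the single subunit that was not called. It lies at the membrane-arm surface that meets complex III in respiratory supercomplexes. It had 18923, 21914, 21036 and 23641 normalised reads in MI replicates 1 to 4, against 27100.1, 22037, 27779 and 24867 in Sham replicates 1 to 4, with means of 21379 ± 1962 in MI hearts and 25446 ± 2591 in Sham hearts (SD, n = 4 each). MI replicate 4 exceeded Sham replicate 2, so the groups overlapped. The log2 difference was -0.25 ± 0.09 (limma adjusted p = 0.0534; mm9 chromosome 17, 56857093 to 56864384, plus strand), and it turned to 0.057 with scaling to the library total. It was called lower by DESeq2 (adjusted p = 0.0338) and by limma without Sham replicate 2 (0.0205) or MI replicate 4 (0.0391). Limma also called it lower with upper-quartile scaling (adjusted p = 0.0126) and with a filter at a mean of at least 50 (0.0495). GENCODE lists a near copy of this gene, Ndufa11b, and likewise Ndufb4c, Ndufs6b and Ndufab1-ps for 3 other subunits, and whether reads were shared between such copies was not tested.

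Ndufa4 and Ndufa4l2 are related proteins. Ndufa4 was first described with complex I and is now counted with complex IV, and Ndufa4l2 is known as a hypoxia-induced gene. Ndufa4 had 22805, 27159, 26542 and 26396 normalised reads in MI replicates 1 to 4, against 32519, 32514, 40923 and 36111 in Sham replicates 1 to 4, and fell by 0.46 ± 0.09 on the log2 scale (limma adjusted p = 0.00255; mm9 chromosome 6, 11847664 to 11857769, minus strand). Ndufa4l2 had 2269, 2084, 2427 and 2672 normalised reads in MI replicates 1 to 4, against 2375, 1671, 1874 and 1547 in Sham replicates 1 to 4, with means of 2363 ± 249 in MI hearts and 1867 ± 365 in Sham hearts (SD, n = 4 each). Its groups overlapped through Sham replicate 1, and the log2 difference of 0.35 ± 0.13 was not called (limma adjusted p = 0.0534; mm9 chromosome 10, 126951995 to 126954210, plus strand). It was called higher without Sham replicate 1 (limma adjusted p = 0.00698) or MI replicate 2 (0.0392), and by edgeR (0.0474) and DESeq2 (0.0315).

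The balance within this pair does not depend on scaling, and the transcript lengths used set its size but not the comparison of the groups. Per base of transcript, Ndufa4l2 reached 6.50%, 5.01%, 5.97% and 6.61% of the level of Ndufa4 in MI replicates 1 to 4, against 4.77%, 3.36%, 2.99% and 2.80% in Sham replicates 1 to 4. The means were 6.02 ± 0.729% in MI hearts and 3.48 ± 0.892% in Sham hearts (SD, n = 4 each). Every MI library was above every Sham library (exact permutation test, 2-sided p = 0.0286, the smallest possible). Ndufa4, the denominator, was itself lower in MI hearts with no overlap between groups. A locus that did not change would therefore also rise relative to Ndufa4, and the ratio does not show a rise of Ndufa4l2. Ratios of other loci to Ndufa4 were not examined.

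The subunits moved together from library to library within each group. Relative to the Sham mean, the median subunit stood at -0.77, -0.44, -0.57 and -0.46 on the log2 scale in MI replicates 1 to 4, and at -0.02, -0.20, 0.24 and -0.05 in Sham replicates 1 to 4. MI replicate 1 was the lowest MI library for all 29 subunits, Sham replicate 3 the highest Sham library for all 29, and Sham replicate 2 the lowest Sham library for 28. The highest MI library was replicate 2 for 15 subunits and replicate 4 for 14. The summed level of the subunits was 581335 to 725322 normalised reads in MI libraries and 892568 to 1158700 in Sham libraries.

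The share of reads from the mitochondrial genome moved with these medians. It was 23.8%, 26.1%, 24.3% and 25.4% in MI replicates 1 to 4, and 31.2%, 29.2%, 32.3% and 30.2% in Sham replicates 1 to 4, with no overlap (means 24.9 ± 1.04% in MI hearts and 30.7 ± 1.33% in Sham hearts, SD, n = 4 each; exact permutation test, 2-sided p = 0.0286). The order of the 8 libraries by this share was the same as their order by the subunits' median, a likeness seen after the values were known and given with no test. Both measures read the same libraries and the shares depend on no scaling. The mitochondrial genome encodes the remaining core subunits of complex I; its 8 deposited loci hold several genes or are not named, and 6 of the 8 were lower in MI hearts, with log2 differences of -0.99 to -0.54.

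**Figure D3:**
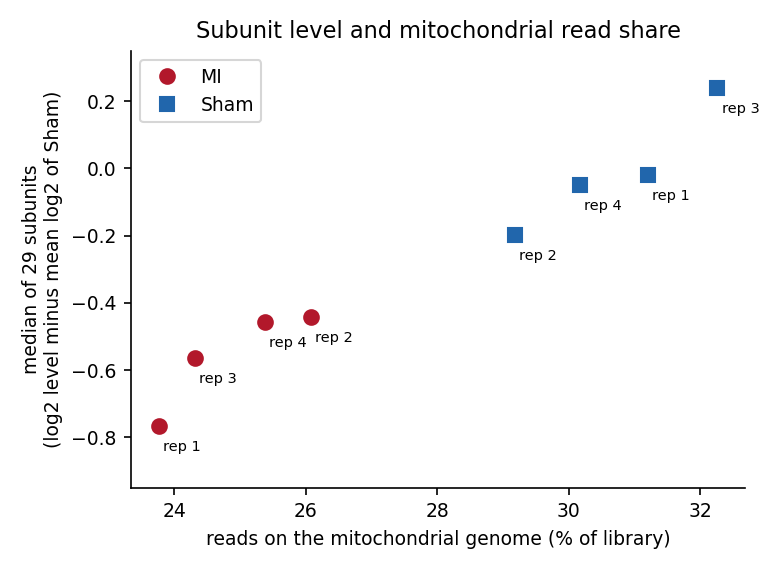
Share of a library's reads that map to the mitochondrial genome (percent, horizontal axis) against the median of the 29 subunits as log2 difference from the Sham mean (vertical axis), with a point for each library and its replicate number. The 4 MI libraries lie at 23.8% to 26.1% and the 4 Sham libraries at 29.2% to 32.3%.

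Marker genes of some other cell types also differed between the groups, and their part in the fall of the subunits was not tested. In bulk tissue, fewer cells of a type and less RNA per cell cannot be told apart. All 8 fibroblast markers were higher, with a median log2 difference of 2.32 and a summed level of 589370 to 913855 normalised reads in MI libraries and 107998 to 161994 in Sham libraries. Of 7 macrophage markers 6 were higher, with summed levels of 37707 to 46746 in MI libraries and 23012 to 31609 in Sham libraries. The other, Cd163, had a log2 difference of -0.51. It was not called by limma (adjusted p = 0.0536) or edgeR, and was called lower by DESeq2. Of 4 smooth muscle markers 3 were higher, with sums of 25820 to 35179 in MI libraries and 20234 to 27684 in Sham libraries. The other, Myh11, had a log2 difference of -0.31 and was not called (limma adjusted p = 0.101), with an unadjusted limma p under 0.05. No smooth muscle marker was called lower by limma, edgeR or DESeq2. None of 6 endothelial markers was called by limma, edgeR or DESeq2, and 1 had an unadjusted limma p under 0.05, with sums of 121513 to 145107 in MI libraries and 111588 to 150590 in Sham libraries. No marker was at 0.

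Cardiomyocytes hold most of the mitochondria of the heart, and their markers were at a high level in every library. Of 12 listed markers 10 were tested. Of these, 4 were lower and none was higher, with a median log2 difference of -0.33, where 20.1% of all tested loci were lower. At an unadjusted p under 0.05, 4 were lower and none higher. EdgeR called 4 lower and DESeq2 5, both with none higher. The markers were not uniform. Those called lower were Pln (-0.78), Ckm (-0.68), Ryr2 (-0.67) and Tcap (-0.66). Those not called were Ttn (-0.42), Tnnc1 (-0.25), Actn2 (-0.14), Actc1 (-0.10), Myom1 (-0.05) and Myom2 (0.04). The summed level was 3451760 to 4235740 normalised reads in MI libraries and 4665520 to 5039180 in Sham libraries. The median subunit minus the median cardiomyocyte marker within a library was -0.20, -0.28, -0.27 and -0.15 in MI replicates 1 to 4 and 0.03, -0.15, 0.18 and -0.06 in Sham replicates 1 to 4. On this measure, which no scaling changes, the groups overlapped at MI replicate 4 and Sham replicate 2.

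Per kilobase of the matching GENCODE transcript, the subunits differed in level by 8.10-fold in Sham hearts. On this scale the level was 5916 to 45198.5 normalised reads per kb in MI hearts, with a median of 20456, and 8707 to 70497 in Sham hearts, with a median of 31929. By transcript length Ndufs4 was the lowest subunit in both groups and Ndufb10 the highest. The order rests on that length: per kilobase of all exon bases of the locus, which are more than 2 times the transcript length in 15 of 29 subunits, the Sham level ran from 950.2 in Ndufa6 to 63520.1 in Ndufv1, with Ndufs4 at 6397 and Ndufb10 at 30956. By transcript length Ndufs4 averaged 5916 ± 393 normalised reads per kb in MI hearts and 8707 ± 894 in Sham hearts, and Ndufb10 averaged 45198 ± 4761 in MI hearts and 70497 ± 10626 in Sham hearts (SD, n = 4 each).

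By transcript length the order of the subunits was almost the same in both groups, with a Spearman rho of 0.984 across the 29 genes, which share the libraries and are not independent. Across the same genes the log2 difference had a rho of -0.41 with the Sham level per kb and -0.34 with transcript length, both given as descriptions. The Sham values enter both the log2 difference and the Sham level, which by itself favours a negative rho. The core subunit Ndufv1 averaged 36279 ± 3994 normalised reads per kb in MI hearts and 60117 ± 3397 in Sham hearts. Ndufa4l2 was at 2530.0 ± 267 in MI hearts and 1998 ± 391 in Sham hearts, below every subunit by transcript length, whereas per kilobase of exon bases its Sham level of 1940.3 lay above those of Ndufa6 and Ndufc2 (1896).

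**Figure D4:**
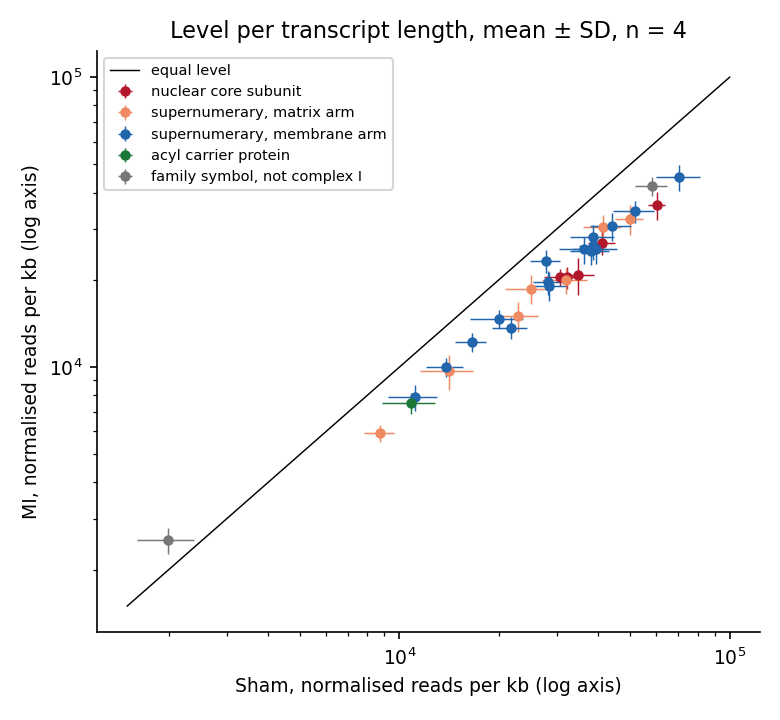
Mean level per kilobase of transcript in MI hearts (vertical axis, log scale) against Sham hearts (horizontal axis, log scale), with a point for each member, coloured by role, and SD bars over 4 libraries. The 29 subunits lie below the line of equal level, with MI means of 59.6% to 84.0% of the Sham means.

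The size of the difference depended on the scaling. The median log2 difference of the 29 subunits was -0.56 with the deposited normalisation, -0.54 with TMM, -0.61 with upper-quartile scaling, -0.37 with scaling to the nuclear total and -0.26 with scaling to the library total. The number called lower was 28, 28, 29, 26 and 18 under these scalings in turn, with none called higher. The median of all tested loci was -0.02, 0.00, -0.06, 0.17 and 0.29 in the same order, and a scaling shifts all loci by about the same amount. The subunits' median minus that median was -0.55 under each, which is fixed by construction and is no separate result. With scaling to the library total 28 of the 29 log2 differences were below 0, the exception being Ndufa11, and the 10 calls lost were those of Ndufa1, Ndufa2, Ndufa6, Ndufab1, Ndufb3, Ndufb6, Ndufc1, Ndufc2, Ndufs5 and Ndufv3.

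**Figure D5:**
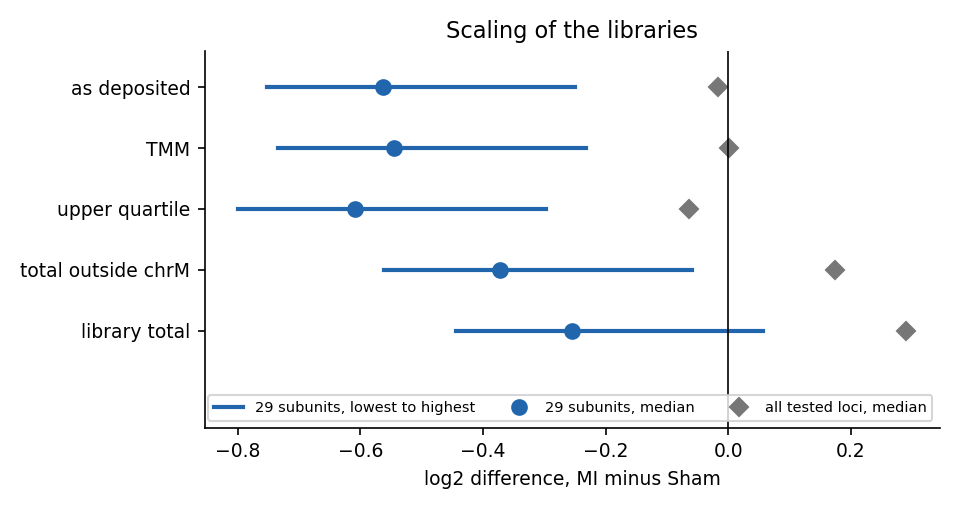
Log2 difference (MI minus Sham, horizontal axis) under 5 scalings down the page; bars run from the lowest to the highest of the 29 subunits, circles mark their median and diamonds the median of all tested loci. The subunits' median lies between -0.61 and -0.26, and a scaling shifts all loci together, so its distance from the median of all tested loci is the same by construction.

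Promoters were examined because the subunits moved together. From RefSeq (GRCm38.p6), 28 promoters of 27 of the 31 members were searched, each 250 bases before to 50 bases after the start. Ndufa2 was left out of the search, and no promoter was found for Ndufa4l2, Ndufb9 or Ndufs1. A short core of the sites of 5 factors linked to respiratory genes was searched on both strands. The NRF1 core GCATGCGC stood in 3 of 28 promoters (10.7%), against 2.71% of 32851 promoters of all genes. The ETS core bound by GABPA, CCGGAA, stood in 9 (32.1%), against 14.9%. The YY1 core ATGGCGG stood in 6 (21.4%), against 4.06%. The core of the oestrogen-related receptors, AAGGTCA, stood in 2 (7.14%), against 4.72%, and the NF-Y core CCAAT in 7 (25%), against 37.4%. In 8 of the promoters none of these letters stood, and 3 matches overlapped another. A match is a description of letters and not of binding.

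The promoters of the 2 subunits with the lowest log2 differences, Ndufs7 (GRCm38.p6 chr10:80249199-80249498, plus strand) and Ndufv1 (GRCm38.p6 chr19:4012706-4013005, minus strand), are printed beside that of Ndufa11 (GRCm38.p6 chr17:56717512-56717811, plus strand), the subunit that was not called. Capitals mark the ETS and then the YY1 core in Ndufs7, the ETS core of the other strand in Ndufv1, and overlapping NRF1 cores on opposite strands in Ndufa11.
Ndufs7: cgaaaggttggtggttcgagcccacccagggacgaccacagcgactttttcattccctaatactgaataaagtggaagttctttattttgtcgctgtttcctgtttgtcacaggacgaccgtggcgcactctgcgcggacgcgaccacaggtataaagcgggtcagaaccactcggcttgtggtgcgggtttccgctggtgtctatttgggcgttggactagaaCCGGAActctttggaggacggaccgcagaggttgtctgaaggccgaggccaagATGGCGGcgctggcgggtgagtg
Ndufv1: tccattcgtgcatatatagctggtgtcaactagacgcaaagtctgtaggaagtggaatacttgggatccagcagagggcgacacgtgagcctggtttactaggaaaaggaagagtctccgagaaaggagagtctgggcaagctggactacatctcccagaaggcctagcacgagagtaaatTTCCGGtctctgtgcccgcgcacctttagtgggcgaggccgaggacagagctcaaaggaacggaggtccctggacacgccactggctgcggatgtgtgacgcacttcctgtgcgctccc
Ndufa11: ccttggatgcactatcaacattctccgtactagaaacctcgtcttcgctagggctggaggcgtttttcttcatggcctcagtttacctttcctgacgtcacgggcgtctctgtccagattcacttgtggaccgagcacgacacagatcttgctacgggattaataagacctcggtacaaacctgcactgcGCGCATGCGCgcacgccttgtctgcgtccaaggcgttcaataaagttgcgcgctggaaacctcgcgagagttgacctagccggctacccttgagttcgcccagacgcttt
No motif was shared by all 3, and nothing about the factors follows from these matches.

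Most genes that build complex I fell with its subunits. Of 17 listed assembly factors 15 were tested and 14 were lower, with none higher and a median log2 difference of -0.44. At an unadjusted p under 0.05, 15 were lower; edgeR called 14 lower and DESeq2 15, with none higher in any of these. Nubpl, which delivers iron-sulphur clusters to complex I, had a log2 difference of -0.61 ± 0.10 (limma adjusted p = 0.00102). Ecsit, of the assembly complex for the membrane arm, was at -0.60 ± 0.09 (limma adjusted p = 0.000525) and the oxidoreductase Foxred1 at -0.47 ± 0.07 (limma adjusted p = 0.000644). Ndufaf2, the factor that was not called, was at -0.30 ± 0.11 (limma adjusted p = 0.0556). It was called lower with upper-quartile scaling (0.0176), DESeq2 (0.0292), thinned reads (0.0445), the replicate number as a block (0.0450) and without Sham replicate 2 (0.0253). It turned to 0.0070 with scaling to the library total, where 3 of the factors were lower.

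Subunits of the other respiratory complexes had a median log2 difference of -0.55, next to the -0.56 of complex I. Of 35 tested, 33 were lower and none higher, also at an unadjusted p under 0.05 and with edgeR and DESeq2. The medians were -0.71 over 4 subunits of complex II, -0.52 over 7 of complex III, -0.55 over 12 of complex IV and -0.57 over 12 of complex V, the ATP synthase. The 3 with the largest change were Sdha at -0.80 ± 0.10, the striated-muscle isoform Cox6a2 at -0.74 ± 0.12 and Sdhc at -0.73 ± 0.08. The 2 that were not called were Cox6a1, the isoform of tissues other than striated muscle, at 0.03 ± 0.12 (limma adjusted p = 0.845), and Cox8a, at 0.02 ± 0.13 (limma adjusted p = 0.927), and both turned below 0 with upper-quartile scaling and were called higher with scaling to the library total. No difference between the complexes was tested.

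Factors that drive mitochondrial gene expression were less uniform. Of 11 tested, 5 were lower and 2 higher, with a median log2 difference of -0.26. Among all tested loci 20.1% were lower and 20.8% higher, so the number higher is near the share of all loci. Ppara, a nuclear receptor for fatty acid use, was at -0.80 ± 0.23 (limma adjusted p = 0.0166), with groups that overlapped. Its call was lost with no filter on low values (0.0951), with scaling to the nuclear total (0.0535) or the library total (0.103) and without MI replicate 1 (0.0517). The oestrogen-related receptors Esrrg and Esrrb were at -0.55 ± 0.10 (limma adjusted p = 0.00131) and -0.49 ± 0.08 (limma adjusted p = 0.000731). The coactivator Pprc1 was higher at 0.27 ± 0.09 (limma adjusted p = 0.0440), as was the GABP subunit Gabpb1 at 0.21 ± 0.07 (limma adjusted p = 0.0276). Both calls were lost with upper-quartile scaling (adjusted p = 0.0517 for Pprc1 and 0.0759 for Gabpb1), that for Pprc1 also with no filter (0.103), with reads thinned to equal depth (0.0531) and without MI replicate 2, 3 or 4 or Sham replicate 1, 2 or 4, and that for Gabpb1 also with the replicate number as a block (0.0514) and without MI replicate 1 or 3 or Sham replicate 1 or 4. Tfam, which packages mitochondrial DNA, and Gabpa, the DNA-binding subunit of GABP, were lower at -0.33 and -0.26. The coactivators Ppargc1a and Ppargc1b, at -0.11 and -0.42, and the factors Nrf1 and Yy1, at -0.03 and -0.01, were not called. With scaling to the library total none of the 11 was lower and 4 were higher. That scaling moved all loci upwards, with 1493 of 19245 tested loci lower and 8569 higher.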

How the data were processed

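RNA extracted with Trizol was enriched for poly(A) and read from both ends over 100 bases, as the labels' protocols state. The deposited table holds a normalised signal per locus and sample, made by the authors on build mm9 with DESeq, HTSeq 0.5.4p2, Cufflinks 2.0.2 and TopHat2 2.0.5, per the submitters' processing notes. The sources used here give neither their roles and settings nor whether strand was used, so reads of overlapping or antisense genes cannot be told apart. All values were whole multiples of 1 step per sample within 0.000001, so reads could be rebuilt. A normalised read is a read divided by the sample's size factor, and 1 read was worth 0.663 to 1.58 of them. The fewest reads of a subunit in a library were 4467, so counting error is small beside the spread between hearts. The 4 samples of a condition are described as biological replicates, and none duplicated another: within groups the chi-square of 2 libraries' reads over its degrees of freedom was 21.6 to 102.

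Loci carry no gene symbols and were named by matching the lengths of exons and introns to genes of GENCODE release M21 on the same chromosome and strand (19507 loci); a locus that also held another gene was dropped. Levels per kb use the length of the matching GENCODE transcript. Coordinates are mm9 from the deposited annotation, counted from 1, except for promoters.

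The test was limma-trend (limma 3.58.1 in R 4.3.3) fitted to log2(value + 1), MI against Sham, 2-sided, over 19186 loci with a mean of at least 10, called at a Benjamini-Hochberg adjusted p under 0.05. Log2 differences are on this scale and ± is their standard error. As alternatives, edgeR 4.0.16 (quasi-likelihood) and DESeq2 1.42.0 were run on the rebuilt reads. Permutation tests used scipy 1.17.1, and tables were handled with pandas 2.3.3 and numpy 2.4.6 in Python 3.11.15. The fit was tested on simulated data. The members, the other gene lists and the tests were chosen with earlier results of these data known. Values of every sample are given for the core subunits, the 5 lowest and 5 highest members, members not called lower, and the Ndufa4 pair; in other lists, the 3 called members with the largest change and those called the other way. Some list members share a locus or matched none and were not used. Some items are not reported here.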

Additional observations from a re-analysis of the deposited data

Results flagged for a closer look

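Of 62 groups of 4 values, 4 held a library whose gap to the nearest other library, divided by the range of the group, exceeded Dixon's critical value; chance flags about 1 group in 20. Ndufb9, a LYR-family subunit of the membrane arm, was lowest in MI replicate 1 with 21030.5 normalised reads, where the other MI libraries had 25243 to 25402. Ndufb6 was lowest in the same library with 4404, where the other MI libraries had 5369 to 5564. Ndufc1 was also lowest there with 11114, where the others had 12931 to 13114. Ndufb3 was highest in Sham replicate 3 with 19413, where the other Sham libraries had 13379 to 14384. These are the libraries in which all 29 subunits were lowest among MI hearts and highest among Sham hearts. All 4 genes stayed called lower in MI hearts without the library concerned.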

How the results depend on the processing

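Over 31 members and 21 alternative settings, 622 outcomes kept their direction and their side of the threshold, 15 lost the call, 13 gained a call and 1 reversed; the causes were not tested. With 0.5 or 5 as pseudocount no call of a member moved. With no filter, 1 regulator was higher. The number of members higher was 1 (Ndufa4l2) with TMM scaling, robust moderation, edgeR, DESeq2 and both scalings to totals. With upper-quartile scaling 0 regulators were higher, Cox8a was at -0.030 and Cox6a1 at -0.012. With scaling to the library total, 19 members were lower (median -0.25), 3 assembly factors and 0 regulators were lower, 2 subunits of complexes II to V and 4 regulators were higher, and Ndufa11 turned to 0.057 and Ndufaf2 to 0.0070. Over all loci this scaling gave 1493 lower and 8569 higher. With scaling to the nuclear total, the members' median was -0.36, 2 regulators were lower, and 2142 loci were lower and 6389 higher. With reads thinned to equal depth 1 regulator was higher.

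With the replicate number as a block, 29 members were lower, Gabpb1 was no longer called, leaving 1 regulator higher, and Ndufaf2 was called lower (adjusted p = 0.0450). Same-numbered libraries correlated at -0.0009 to 0.272, with 3 of 4 pairs over 0.1, and 3 MI and 2 Sham libraries correlated best with their own number. These values do not settle whether the numbers mark pairs, and the main test did not use them as pairs.

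Leaving out each library in turn gave 29 to 30 members lower and 0 to 1 higher with a median of -0.62 to -0.49, 14 to 15 assembly factors and 33 to 33 subunits of complexes II to V lower, 4 to 6 regulators lower and 0 to 2 higher, and 3193 to 3897 loci lower and 3324 to 3976 higher. Cox8a ranged from -0.077 to 0.12 and Cox6a1 from -0.061 to 0.11.

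Limits are the 4 hearts per group, the conflicting label fields, the bulk tissue and the 18 members that share exon bases with another deposited locus. For 6 subunits (Ndufs7, Ndufv3, Ndufa6, Ndufab1, Ndufb9 and Ndufc2) more than 50% of the bases are shared. Their median log2 difference was -0.53, against -0.58 for the other 23.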

Other observations

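Ndufb1-ps, which GENCODE lists as non-coding and which is therefore no member, averaged 13431 ± 1003 normalised reads in MI hearts and 18525 ± 3759 in Sham hearts (SD, n = 4 each) and fell by 0.45 ± 0.12 on the log2 scale (limma adjusted p = 0.0146). It was looked at after the values were seen.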
